A study of Arabidopsis thaliana with 2 samples.

Results

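The 10 genes described here encode NAC transcription factors, and they were taken by gene name from the deposited table of stem transcripts, which lists 733 genes. Their names in that table are *anac074*, *ANAC080*, *ATNAC2*, *anac032*, *ANAC104*, *NAC016*, *NAC018*, *NAC029*, *NAC014* and *ANAC083*. They are the only genes of the table whose RefSeq product names a NAC protein, out of 115 such genes in the TAIR10.1 annotation. The study compared mature stems of the *Arabidopsis thaliana* *cep1* mutant with those of WT plants, 1 RNA-seq library for each genotype. *CEP1* encodes a papain-like cysteine protease. The *cep1* line carries a homozygous T-DNA insertion in the third exon of that gene and stands for 1 mutant allele, and the WT is Columbia-0. Both groups were untreated, both are labelled as stem at 25 d after flowering, and by the study's methods both stems had stopped flowering when they were collected. The study describes *cep1* as slower to develop and matched stems by stage. For its staged stem material it reports taking mutant stems 1 week after WT stems. The mutant plants of the RNA-seq may therefore have been older at collection than the labels state, and genotype and plant age cannot be told apart. Neither library was replicated. The variation from plant to plant is therefore not known, and no p-value was computed.

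NAC proteins form one of the large transcription factor families of plants. They bind DNA through a conserved N-terminal domain, while the C-terminal part differs between members and usually carries the activating or repressing function. Members of the family set off the differentiation of xylem vessels and fibres, which ends in secondary wall deposition and cell death, and others drive the ageing and death of leaves and floral organs. Several NAC mRNAs are held down by the microRNA miR164, which pairs with a site in the coding sequence.

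All genes in the table carry the authors' mark for lower expression in *cep1*. The direction of the 10 NAC genes was therefore fixed by the table and is not a result. The values below describe how far they were apart and how they differ among themselves. Read counts are raw counts per gene, and FPKM is the count scaled to gene length and to the library total. The totals behind the FPKM values were 22077141 reads for *cep1* and 20962056 for the WT. Ratios are given as log2 of *cep1* over WT, on the scale of the authors' normalized read counts, with exact (Clopper-Pearson) 95% intervals. Those intervals reflect the sampling of reads alone, and PCR copies, which cannot be recognised here without molecular identifiers, would make them too narrow. *CEP1* itself (AT5G50260) had 15 reads (0.441 FPKM) in *cep1* and 1269 reads (39.3 FPKM) in the WT.

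At the threshold used for the table, a log2 ratio of -1 or below, 10 of the 10 NAC genes passed, as did 100% of the 733 genes listed. When the whole 95% interval had to lie at or below -1, 8 of the 10 passed, against 90.2% of all genes listed. The exceptions were *NAC014* and *ANAC083*. The median log2 ratio of the NAC genes was -1.95, and that of the 672 genes of the table with reads in *cep1* was -1.75. None of the NAC genes lacked reads in *cep1*, whereas 61 genes of the table did. Those 61 are left out of the table's median, which would be lower with them. Summed over the 10 genes, the level was 168 FPKM in *cep1* and 606 FPKM in the WT. The log2 ratio of these sums was -1.85 on the FPKM scale, on which ratios lie 0.24 lower than on the scale of the median above. For the sums over the whole table it was -2.08, so the NAC genes were not lower than the table by this measure. The FPKM value of *cep1* was below that of the WT for each of the 10 genes.

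**Figure D1:**
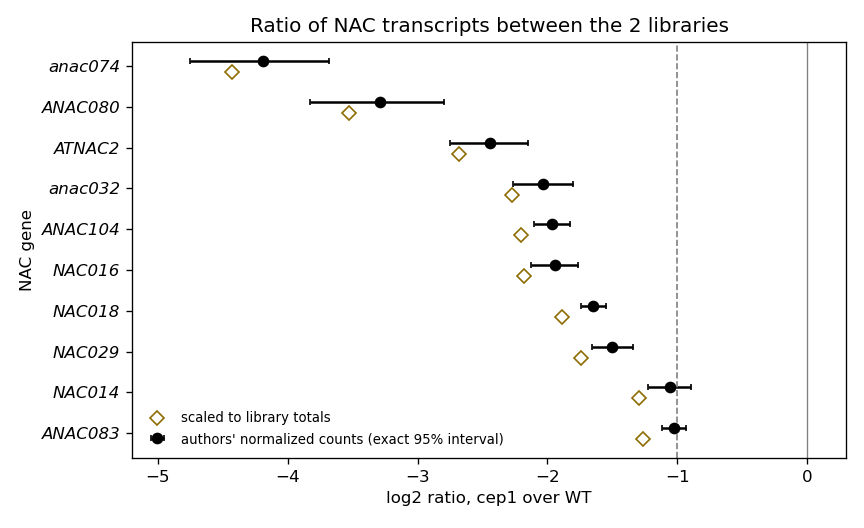
Log2 ratio of *cep1* to WT for each of the 10 NAC genes. Filled circles use the authors' normalized counts with exact 95% intervals of counting error, open diamonds use library totals, and the dashed line marks -1. The ratios run from -4.19 for *anac074* to -1.02 for *ANAC083*, and on the library totals each lies 0.24 lower.

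Of the NAC genes, *anac074* and the miR164 targets *ANAC080* and *ATNAC2* had the lowest ratios. The intervals of *anac074* and *ANAC080* overlapped. That of *ATNAC2* overlapped the interval of *anac032*, which is not a listed miR164 target. The mature miRNA and its best sites in *ANAC080* and *ATNAC2* are shown because both targets are among the NAC genes described here. Sequences are from the RefSeq genome of TAIR10.1 and are written 5′ to 3′. In the miRNAs the capitals mark the seed, bases 2 to 8. In the sites, given as the mRNA sequence in DNA letters, capitals mark bases that form Watson-Crick pairs with miR164a.
miR164a, chr2:19520770-19520790: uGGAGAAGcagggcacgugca
miR164b-5p, chr5:287586-287606: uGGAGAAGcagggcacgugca
miR164c-5p, chr5:9852684-9852704: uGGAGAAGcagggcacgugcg
*ANAC080* site, chr5:2436958-2436978: TttACGTGCCCTGCTTCTCCA
*ATNAC2* site, chr5:15858797-15858817: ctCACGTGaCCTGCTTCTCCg

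The miRNAs share 1 seed. The sites of *ANAC080* and *ATNAC2* lie wholly within the coding sequence, with 2 and 4 of their 21 positions outside Watson-Crick pairing. Of these positions, 1 in each site is a G:U pair. The best match in the other 8 NAC genes left 8 to 10 of 21 positions outside Watson-Crick pairing, G:U pairs included. From a list of 6 established miR164 targets, 2 were in the table, which held 2.51% of all genes with a protein. Both are among the 10 genes taken by name, so their presence is no result, and the other 4 (*CUC1*, *CUC2*, *NAC1* and *ANAC100*) were not analysed here. The miRNA itself was not measured.

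*ATNAC2* (AT5G39610, chr5:15858400-15859788 in the table's coordinates, whose build is not stated) is better known as *ORE1* or *ANAC092* and promotes age-dependent death of leaf cells. It had 110 reads (4.20 FPKM) in *cep1* and 670 reads (26.9 FPKM) in the WT. Its log2 ratio was -2.44 (95% interval, -2.75 to -2.15), or 5.44-fold lower in *cep1*. *ANAC080* (AT5G07680, chr5:2435875-2437499) was the least abundant NAC gene of the WT library. It had 36 reads (1.27 FPKM) in *cep1* and 395 reads (14.7 FPKM) in the WT. On the log2 scale this was -3.29 (-3.83 to -2.80). The intervals of the ratios of *ANAC080* and *ATNAC2* did not overlap.

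*anac074* (AT4G28530, chr4:14090489-14094776), also called *KIRA1*, promotes the programmed death of stigma papilla cells at the end of flower life. It had 32 reads (1.03 FPKM) in *cep1* and 656 reads (22.1 FPKM) in the WT. Its log2 ratio of -4.19 (-4.75 to -3.68), 18.3-fold lower in *cep1*, was the lowest of the NAC genes and ranked 145th of 733 in the table. In the TAIR10.1 annotation its 3′ end lies 692 bp from that of the seed storage gene *CRC* (AT4G28520), which is on the opposite strand. No read of *CRC* was counted in *cep1* (0 reads), against 19882 reads in the WT. Whether the counting used strand is not given in the sources used here, and the part of this neighbour in the *anac074* count was not tested.

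*NAC029* (AT1G69490, chr1:26122139-26123421), known as *NAP*, activates leaf senescence. It had 435 reads (17.9 FPKM) in *cep1* and 1378 reads (59.8 FPKM) in the WT. The log2 ratio was -1.50 (-1.66 to -1.34). *NAC016* (AT1G34180, chr1:12448567-12451287) promotes the breakdown of chlorophyll in ageing leaves. It had 312 reads (7.21 FPKM) in *cep1* and 1346 reads (32.8 FPKM) in the WT. In log2 terms the ratio was -1.95 (-2.13 to -1.77). *anac032* (AT1G77450, chr1:29099954-29101261) belongs to the ATAF group of stress-responsive NAC genes. It had 191 reads (7.75 FPKM) in *cep1* and 875 reads (37.4 FPKM) in the WT. Its log2 ratio was -2.03 (-2.27 to -1.80). The ratios of *anac032*, *ANAC104* and *NAC016* followed each other in rank within the family, and their intervals overlapped.

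The xylem regulators among the NAC genes stood at different distances. *ANAC104* (AT5G64530, chr5:25795233-25796938) is *XND1*, which blocks secondary wall formation and cell death in xylem vessels when it is overexpressed. It had 511 reads (24.9 FPKM) in *cep1* and 2231 reads (114 FPKM) in the WT. The log2 ratio was -1.96 (-2.10 to -1.82). *ANAC083* (AT5G13180, chr5:4196572-4197848) is *VNI2*, a repressor that binds the vessel master regulator VND7 and also delays leaf ageing. It had 1396 reads (57.4 FPKM) in *cep1* and 3178 reads (138 FPKM) in the WT. Its log2 ratio of -1.02 (-1.11 to -0.93) was the closest to 0 among the NAC genes, and its interval reached across -1. The interval of *ANAC104* lay wholly below that of *ANAC083*. Of a list of 14 genes of xylem differentiation, including *VND6*, *VND7*, *SND1* and *NST1*, 1 was in the table, *CEP1*, beside 2.51% of all genes with a protein. The other 13 were not analysed here, and the identity of the stem tissue was therefore not checked by its own markers.

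*NAC018* (AT1G52880, chr1:19688957-19690542), also *NAM* or *NARS2*, acts in the seed coat during embryo development. It had 1161 reads (37.5 FPKM) in *cep1*, against 4070 reads (138 FPKM) in the WT, where it was the most abundant NAC gene. This gave a log2 ratio of -1.65 (-1.74 to -1.55). Transcripts of seeds were among those listed as lower in *cep1*. Of 22 seed marker genes (storage proteins, oleosins and seed regulators), 18 were in the table, beside 2.51% of all genes with a protein. *EM1*, *EM6*, *FUS3* and *LEC2* were not analysed here. The direction of the 18 was fixed by the table, and their sums describe its rows alone. They summed to 250 reads in *cep1*, which is 0.00113% of the library (Wilson 95% interval, 0.00100 to 0.00128%), and to 93200 reads in the WT, which is 0.445% (0.442 to 0.447%). Of the 18 genes, 15 had 0 reads in *cep1*, including the 4 cruciferin and 5 2S albumin genes. Over the whole table, 61 of 733 genes had 0 reads in *cep1*. The others were *OLEO4* with 137 reads, *WRI1* with 111 and *TIP3-1* with 2 in *cep1*, against 1669, 705 and 291 reads in the WT. The part of seed tissue in the NAC values was not tested, and in bulk samples fewer cells of a type and less RNA per cell cannot be told apart.

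*NAC014* (AT1G33060, chr1:11975340-11978521) encodes the longest of the 10 proteins. It had 430 reads (9.03 FPKM) in *cep1* and 1001 reads (22.1 FPKM) in the WT. Its log2 ratio was -1.06 (-1.22 to -0.89) and ranked 698th of 733 genes.

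**Figure D2:**
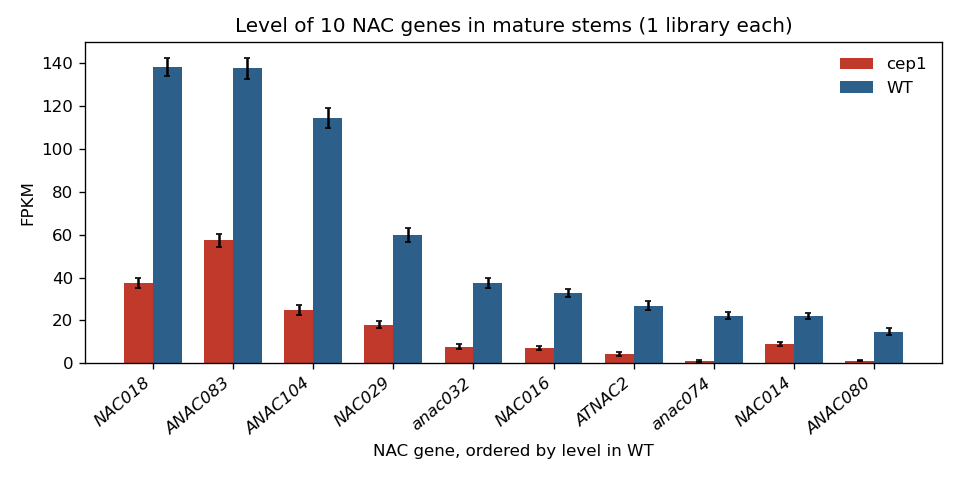
FPKM of the 10 NAC genes in the *cep1* library (red) and the WT library (blue), ordered by the level in the WT. Error bars are exact Poisson 95% intervals of the read counts, each bar is 1 library. *ANAC083* was highest in *cep1* at 57.4 FPKM, and *NAC018* and *ANAC083* were highest in the WT at 138 FPKM each.

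Because FPKM is scaled to gene length, levels can be compared between the genes. In *cep1* the order from high to low was *ANAC083*, *NAC018*, *ANAC104*, *NAC029*, *NAC014*, *anac032*, *NAC016*, *ATNAC2*, *ANAC080* and *anac074*. In that order the Poisson intervals of *NAC014* and *anac032*, of *anac032* and *NAC016*, and of *ANAC080* and *anac074* overlapped. In the WT the order was *NAC018*, *ANAC083*, *ANAC104*, *NAC029*, *anac032*, *NAC016*, *ATNAC2*, *anac074*, *NAC014* and *ANAC080*. Only the neighbours *NAC018* and *ANAC083*, and *anac074* and *NAC014*, overlapped there. *NAC014* was thus 5th in *cep1* and 9th in the WT. *NAC018*, *ANAC083* and *ANAC104* together made up 71.2% of the summed NAC level in *cep1* and 64.4% in the WT. The share of *ANAC083* alone was 34.1% in *cep1* and 22.7% in the WT. Levels ranged from 1.03 to 57.4 FPKM in *cep1* and from 14.7 to 138 FPKM in the WT.

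**Figure D3:**
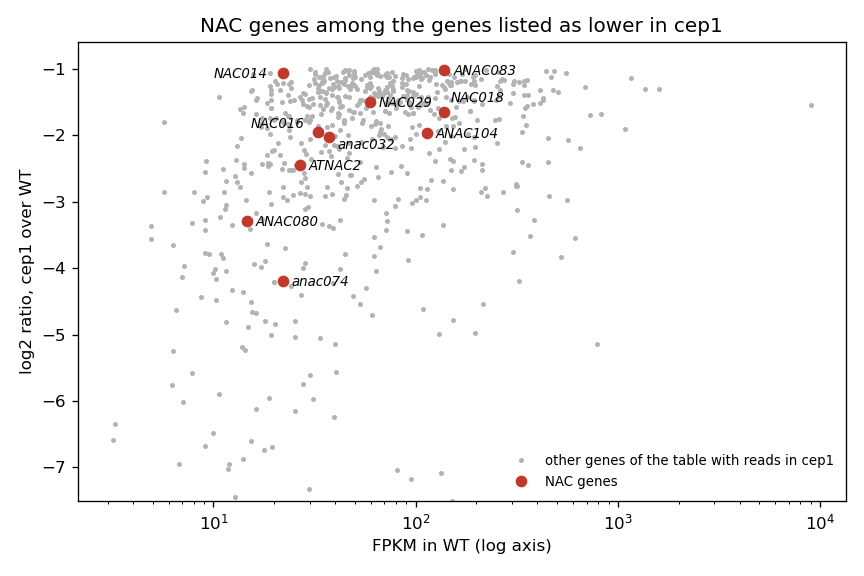
Log2 ratio of *cep1* to WT (authors' normalized counts) against FPKM in the WT (log axis) for the NAC genes (red) and the other genes of the table with reads in *cep1* (grey). All points lie at or below -1 because the table lists genes called lower, and 20 genes with ratios below -7.5 are outside the plotted range. The NAC genes with the lowest ratios, *anac074* and *ANAC080*, had 22.1 and 14.7 FPKM in the WT.

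The table placed 69 genes under transcription factor activity, and the 10 NAC genes were among them. By its gene ontology terms, *ATNAC2*, *NAC029* and *ANAC083* belonged to leaf senescence, a term with 10 genes in the table. *ANAC104* and *ANAC083* were its only genes under xylem development, and were among the 12 genes under cell death. *ATNAC2* and *ANAC083* were annotated to the abscisic acid response, a term with 41 genes in the table. Relative to the genome, the table held 10 of 115 NAC genes (8.70%) and 690 of 27444 genes with a protein (2.51%). The 105 other NAC genes were not analysed here, and whether they had reads in these stems is not known, so nothing is read from those shares.

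Genes of senescence, together with known or proposed targets of NAC factors, were looked up by a list of 16. The table held 5 of them, beside 2.51% of all genes with a protein. The other 11 were *BFN1*, *RNS3*, *SINA1*, *NYC1*, *PAO*, *NOL*, *ACS2*, *AAO3*, *SAG13*, *JUB1* and *EIN3*. They were not in the table and were not analysed here. The list was chosen with earlier results known, and nothing is read from that count. *SAG113*, a phosphatase gene bound by NAC029 (NAP), was read 114 times in *cep1* and 1338 times in the WT. In log2 terms the ratio was -3.39 (-3.68 to -3.11). *SGR1*, needed for chlorophyll breakdown and bound by ORE1, was read 499 times in *cep1* and 1489 times in the WT. The log2 ratio was -1.41 (-1.56 to -1.27). The sugar transporter gene *SWEET15* (*SAG29*) lies next to *ANAC083* on its left in TAIR10.1, 12901 bp away. Just 1 read of it was counted in *cep1*, against 905 in the WT. On the log2 scale this was -9.66 (-14.96 to -7.18). The cysteine protease gene *SAG12*, a common marker of leaf senescence, had 759 reads (27.4 FPKM) in *cep1*, against 9691 reads (369 FPKM) in the WT, and a log2 ratio of -3.51 (-3.62 to -3.40). The ribonuclease gene *RNS1* was read 15 times in *cep1*, against 553 times in the WT, with a log2 ratio of -5.04 (-5.89 to -4.31). That the NAC activators named above and these genes were both lower was fixed by the table and is not a result. With 1 ratio per gene from the same 2 libraries, their covariation could not be measured.

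The proteins were compared by sequence. In the N-terminal region of 200 residues that contains the NAC domain, ANAC080 and ATNAC2 had 76.5% identical residues over 187 aligned, the highest of the 45 pairs. *anac074* had 63.4% identity with ANAC080 and 60.7% with ATNAC2. ANAC083, whose transcript ratio was the closest to 0, had 59.2 to 61.3% identity with NAC018, anac032 and NAC029. NAC018, NAC029 and anac032 had identities of 65.1 to 70.4% among themselves. ANAC104, the shortest protein with 187 residues, had at most 51.1% identity with any other of the 10. The median over all pairs was 52.6%. NAC016 (576 residues) and NAC014 (652 residues) were the only ones with a hydrophobic stretch near the C-terminus, where the mean Kyte-Doolittle hydropathy over 19 residues reached 2.14 and 2.81. Such a stretch is a feature of membrane-tethered NAC factors, which are released by proteolysis, and it was found in 13 of the 115 NAC proteins of the genome. These 2 proteins are also the members annotated as integral to membrane in the table.

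**Figure D4:**
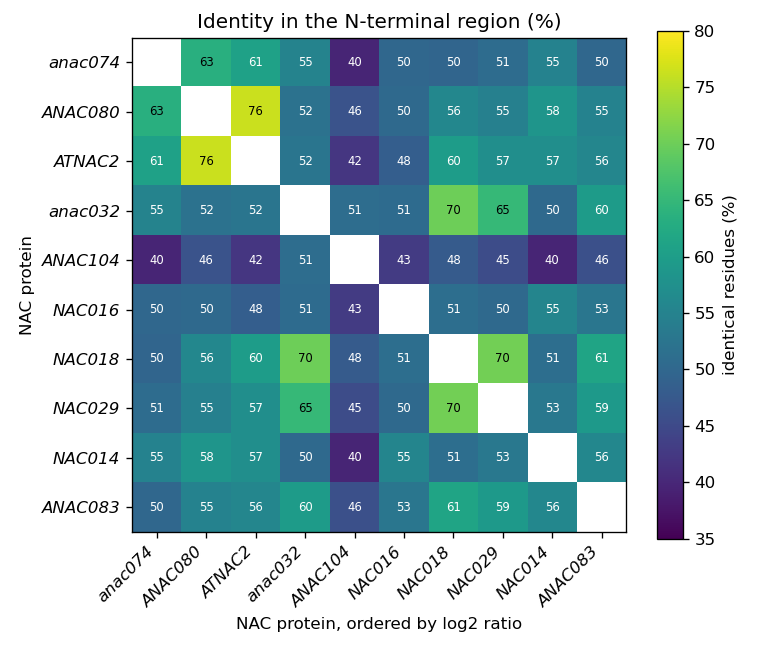
Percentage of identical residues between the N-terminal regions of the 10 NAC proteins in local alignments, with genes ordered by log2 ratio from *anac074* to *ANAC083*. The highest value is 76.5% between ANAC080 and ATNAC2, and the lowest is 39.6% between anac074 and ANAC104.

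Close relatives outside the table could limit how firmly reads are assigned to one gene. Only protein sequences were compared, and how far reads match both genes was not tested. The N-terminal region of NAC018 was 89.9% identical to that of AT3G15510, whose RefSeq symbol is NAC2 and which is not the *ATNAC2* of the table. NAC016 was 89.4% identical to NAC017 (AT1G34190), the next gene on the same strand, which begins 117 bp after *NAC016* ends. ANAC080 was 89.3% identical to NAC100, anac032 86.9% to ATAF1, and ATNAC2 86.2% to NAC3. How reads that match both copies were counted is not given in the sources used here.

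The promoters of the 10 genes, taken as 250 bases before and 50 bases after the RefSeq start in TAIR10.1, shared no motif of those searched on both strands. The G-box CACGTG was found in 3 (*anac032*, *NAC029* and *NAC014*), against 7.68% of 27443 promoters and 14.3% of the 690 promoters of genes in the table. Its inner part ACGTG, a core of abscisic acid response elements that every G-box contains, was found in those 3 and in *ANAC083*, against 26.7% of all promoters and 37.5% of those in the table. The W-box core TTGAC was found in 6, against 50.5% of all promoters and 48.7% of those in the table. CATGTG, a sequence that NAC proteins bind, and the evening element AAAATATCT were each found in 1, *ANAC104*, against 12.9% and 2.82% of all promoters and 15.9% and 2.90% of those in the table. The 250 upstream bases of the 3 promoters with a G-box are printed with it in capitals, since these genes spanned log2 ratios of -2.03 to -1.06. *NAC014* has another G-box 31 bases after the RefSeq start, among the 50 downstream bases that are not printed.
anac032, chr1:29099589-29099838 (forward strand): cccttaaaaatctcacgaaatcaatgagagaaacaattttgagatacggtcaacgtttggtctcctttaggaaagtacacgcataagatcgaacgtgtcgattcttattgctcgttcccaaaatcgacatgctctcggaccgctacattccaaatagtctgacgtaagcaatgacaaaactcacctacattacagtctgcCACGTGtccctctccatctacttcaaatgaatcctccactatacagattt
NAC029, chr1:26121830-26122079 (forward strand): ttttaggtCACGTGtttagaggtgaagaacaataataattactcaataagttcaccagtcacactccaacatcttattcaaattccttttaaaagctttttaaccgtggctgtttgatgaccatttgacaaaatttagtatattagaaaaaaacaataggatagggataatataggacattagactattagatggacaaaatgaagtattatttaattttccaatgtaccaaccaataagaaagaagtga
NAC014, chr1:11978623-11978872 (reverse strand): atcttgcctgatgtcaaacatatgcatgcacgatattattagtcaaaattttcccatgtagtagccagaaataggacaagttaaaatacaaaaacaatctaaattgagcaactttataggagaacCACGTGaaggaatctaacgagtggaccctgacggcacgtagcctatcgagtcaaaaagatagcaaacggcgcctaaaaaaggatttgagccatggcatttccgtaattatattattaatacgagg

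A match in these windows describes letters only. The promoters of *anac074* and *ANAC080*, with the lowest ratios, held no G-box in the window, and neither did that of *ANAC083*, with the ratio closest to 0.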

How the data were processed

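RNA from mature stems was sequenced in 1 *cep1* and 1 WT library. The submitters' processing notes name Bowtie2 2.2.3, TopHat2 2.0.12 and HTSeq 0.6.1, and the build and annotation are not given in the sources used here. Raw read counts were deposited for each gene, without normalization, together with the authors' FPKM values, which scale the counts to gene length and library total. The deposited normalized read counts are a signal equal to the raw count divided by 20.3 (*cep1*) or 22.8 (WT), and only these divisors were used. The deposited fold changes and p-values were not used. The table lists only genes called lower, so size factors that assume mostly unchanged genes could not be computed, and edgeR's quasi-likelihood test had no residual degrees of freedom.

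Library totals were the median of those implied by count, length and FPKM of genes with at least 1000 reads. Alternatives were other scalings, pseudocounts and a read filter. The NAC genes, gene lists and tests were chosen with earlier results of these data known, and all 10 NAC genes are named, with *CEP1* and members of the lists found in the table. Ontology terms and neighbouring genes were picked after the values were seen. Genes were matched to RefSeq (TAIR10.1) by locus tag, 10 of 10. For each, the longest RefSeq protein was translated from the genome, and N-terminal regions were aligned locally (BLOSUM62, Biopython 1.88). The hydrophobic stretch was a window of 19 residues within the last 60 with a mean of at least 1.6. Python 3.11.15, numpy 2.4.6, pandas 2.3.3, scipy 1.17.1 and matplotlib 3.10.9 were used.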

Additional observations from a re-analysis of the deposited data

How the results depend on the processing

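The number of NAC genes at a log2 ratio of -1 or below was 10 on library totals and on FPKM ratios. It was also 10 with a pseudocount of 1 or 0.1 added to the FPKM. On each of these scales 100% of the 733 genes listed passed, so the count is no result about the NAC genes. Library totals were derived from the FPKM, so both scales give the same ratios. The count was 8 when the whole interval had to lie at or below -1, against 90.2% of all genes listed. It was also 8 when at least 50 reads were required in both libraries, a filter that 555 of the 733 genes met. The read filter removed *anac074* and *ANAC080*. Library totals and FPKM ratios placed each of the 10 genes 0.24 lower on the log2 scale than the authors' normalized counts, and the median of the NAC genes at -2.19. That median was -2.18 with a pseudocount of 0.1, -2.09 with a pseudocount of 1 and -1.80 with the read filter. Over all 733 genes of the table, those without reads in *cep1* included, the median was -2.09 with a pseudocount of 0.1. It was -2.00 with a pseudocount of 1. The pseudocount of 1 brought the genes of lowest level closer to 0, *anac074* to -3.51 and *ANAC080* to -2.79. The log2 ratio of the summed level was -1.85 both from FPKM and from reads scaled to the library totals.

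No paired analysis was possible because each genotype has 1 library and no fit was made. The depth limits the low genes most: in *cep1*, *anac074* and *ANAC080* rest on 32 and 36 reads. The spread between plants, the genotype, plant age at collection, the sampling of each stem and the seed transcripts of the WT library cannot be told apart in this design.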
